A study of Hordeum vulgare with 12 samples.

Results

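The gene described here is HORVU3Hr1G085760, annotated as delta-1-pyrroline-5-carboxylate synthase (P5CS), together with its 11 transcripts. It was chosen by its gene ID, 1 gene of 30157 in the gene table and 11 transcripts of 143596 in the transcript table. It was measured by RNA sequencing in leaf of barley (Hordeum vulgare) in 4 groups of 3 libraries each: accession BCS24 under drought, BCS24 in control, BCS8 under drought and BCS8 in control. The label "ck" was read as control. The length and severity of the drought, the age of the plants and whether libraries came from separate plants were not stated in the labels. P-values therefore measure the spread between these libraries, which may be technical.

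P5CS catalyses the entry step of proline synthesis from glutamate. It is bifunctional: its glutamate kinase part phosphorylates glutamate, and its dehydrogenase part reduces the product to glutamate semialdehyde, which closes to pyrroline-5-carboxylate and is then reduced to proline by pyrroline-5-carboxylate reductase (P5CR). Proline accumulates in leaves of many plants under water deficit, P5CS is inhibited by proline, and in Arabidopsis the transcript level of one P5CS copy is known to respond to drought and salt.

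The deposited table places the gene on the plus strand of chromosome 3H, from 614154624 to 614163473, a span of 8850 bases. The genome build is not given in the sources used here. Its annotation carries the orthology number of the bifunctional enzyme, K12657. A further gene with the same description, HORVU1Hr1G072780, lies on the minus strand of chromosome 1H from 498975383 to 498982941. How reads that match both genes were counted is not given in the sources used here, so a part of the counts of either gene could belong to the other.

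Leaf identity was read from 98 genes of light-harvesting, photosystem and Rubisco small subunit annotation, of which 62 were tested. Their summed level lay between 27020 and 75891 FPKM (fragments per kilobase of gene and per unit of library depth) in all 12 libraries, while the single seed storage gene found was at 0.527 FPKM or less and no gene matched the pollen words. Libraries held 49553836 to 61212440 counts. Ribosomal RNA genes took 0.486% ± 0.248 of counts in BCS24 drought, 1.35% ± 0.775 in BCS24 control, 1.65% ± 0.666 in BCS8 drought and 0.770% ± 0.239 in BCS8 control (SD, n = 3 each). Some libraries stood apart from their groups on the second principal component of log2(CPM + 1), where CPM are scaled counts per unit of depth, which held 16.6% of the variance. BCS24 control 1 lay at −3.81, against −40.5 and −41.8 for the other BCS24 controls, BCS8 drought 3 at 56.1, against −6.68 and −23 for the other BCS8 drought libraries, and BCS8 control 2 at 21.1, against −13.4 and −21.4 for the other BCS8 controls.

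P5CS stood higher under drought than in control in both accessions, without overlap between the libraries. In BCS24 the 3 drought libraries had 5.94, 8.53 and 3.75 FPKM, against 2.30, 2.73 and 2.17 FPKM in the 3 control libraries. In BCS8 the drought libraries had 12.8, 5.23 and 6.38 FPKM, against 2.28, 2.53 and 1.76 FPKM in control. The lowest drought library of all 6, BCS24 drought 3, still lay above the highest of the 6 control libraries. Among all 17342 tested genes, 13.5% were higher under drought without overlap in BCS24, 9.66% in BCS8 and 2.9% in both. In whole leaf, more cells of a type that expresses a gene and more RNA per cell cannot be told apart.

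**Figure D1:**
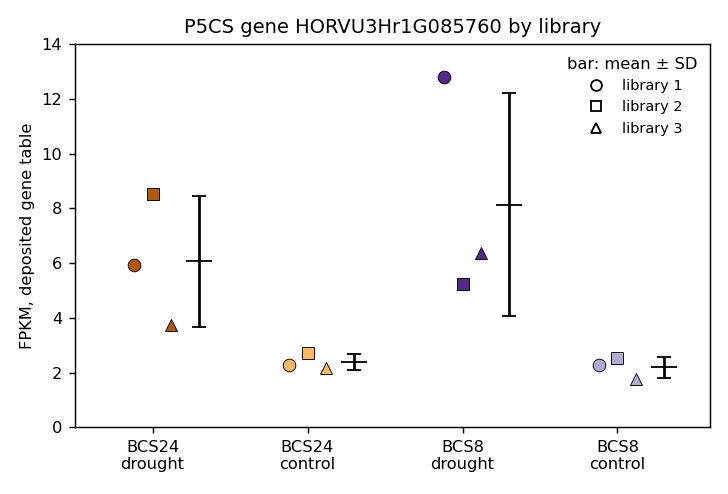
P5CS (HORVU3Hr1G085760) level in FPKM (y axis) in each of the 12 libraries, by group (x axis, 3 points per group), with group means and SD. The 6 drought libraries lie between 3.75 and 12.8 FPKM and the 6 control libraries between 1.76 and 2.73 FPKM.

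By group mean, the order of levels was BCS8 drought, BCS24 drought, BCS24 control and BCS8 control. The means were 8.13 ± 4.07 FPKM in BCS8 drought, 6.07 ± 2.39 in BCS24 drought, 2.40 ± 0.292 in BCS24 control and 2.19 ± 0.392 in BCS8 control (SD, n = 3 each). Neighbours in this order overlapped except at the step between BCS24 drought and BCS24 control. The spread also differed: the coefficient of variation was 39.4% in BCS24 drought and 12.2% in BCS24 control, and 50.1% in BCS8 drought and 17.9% in BCS8 control. Gene FPKM of P5CS rests on a length of 7337 bases, more than its longest transcript of 4999. The length behind FPKM exceeded the longest transcript for 79.4% of tested genes. By this measure, P5CS was a middling transcript relative to the other tested genes under drought and a low one in control. It lay above 52.4% of tested genes in BCS24 drought and 25.6% in BCS24 control, and above 57.4% in BCS8 drought and 23.6% in BCS8 control, by mean FPKM.

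The drought effect was tested on the counts with edgeR's quasi-likelihood F test over all 17342 tested genes, adjusted by Benjamini-Hochberg with a threshold of 0.05. The counts of P5CS were 2697, 3866 and 1885 in BCS24 drought against 1109, 1215 and 893 in BCS24 control, and 5644, 2175 and 3193 in BCS8 drought against 950, 1284 and 834 in BCS8 control. Averaged over both accessions, P5CS rose 3.25-fold under drought, a log2 fold change of 1.70 ± 0.25 (SE; 95% interval 1.14 to 2.25; adjusted p = 0.00564). Of all tested genes, 4% rose in this comparison and 6.87% changed in either direction. An exact permutation of libraries within each accession, over log2(FPKM + 1), gave a difference of 1.22 and p = 0.005, the smallest that these 400 arrangements allow (two-sided; 0.03 after adjustment over 6 such tests).

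In BCS8 the gene rose 3.84-fold under drought, a log2 fold change of 1.94 ± 0.36 (95% interval 1.15 to 2.73; adjusted p = 0.0311), in a comparison where 0.998% of tested genes rose. In BCS24 the fold was 2.75, a log2 fold change of 1.46 ± 0.35 (95% interval 0.68 to 2.24), and the adjusted p of 0.0572 missed the threshold, which 1.4% of tested genes passed upwards. DESeq2 placed the BCS24 effect past the threshold, at 1.45 with an adjusted p of 0.00175, in a fit that called 10.4% of tested genes. With the ribosomal share as a covariate, the effect was 1.61 ± 0.45 in BCS24 (adjusted p = 0.205), 1.80 ± 0.43 in BCS8 (0.117) and 1.70 ± 0.26 on average (0.00727). Without BCS24 control 1 the BCS24 effect was 1.41 (adjusted p = 0.0965), and without BCS8 drought 3 the BCS8 effect was 2.08 (0.0367). The BCS8 call was also lost when only the BCS8 groups were fitted (1.93; adjusted p = 0.125). It was lost without any 1 of 7 libraries, with adjusted p-values of 0.0577 without BCS24 drought 1, 0.0513 and 0.0598 without BCS24 control 2 and 3, 0.0602 without BCS8 drought 1, and 0.149, 0.0616 and 0.118 without BCS8 control 1, 2 and 3. Conversely, the BCS24 effect passed without BCS24 drought 3 (0.0409), BCS8 drought 1 (0.0330) or BCS8 drought 2 (0.0417). The average effect over both accessions passed without any 1 of the 12 libraries, with adjusted p-values of 0.00442 to 0.0219.

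**Figure D2:**
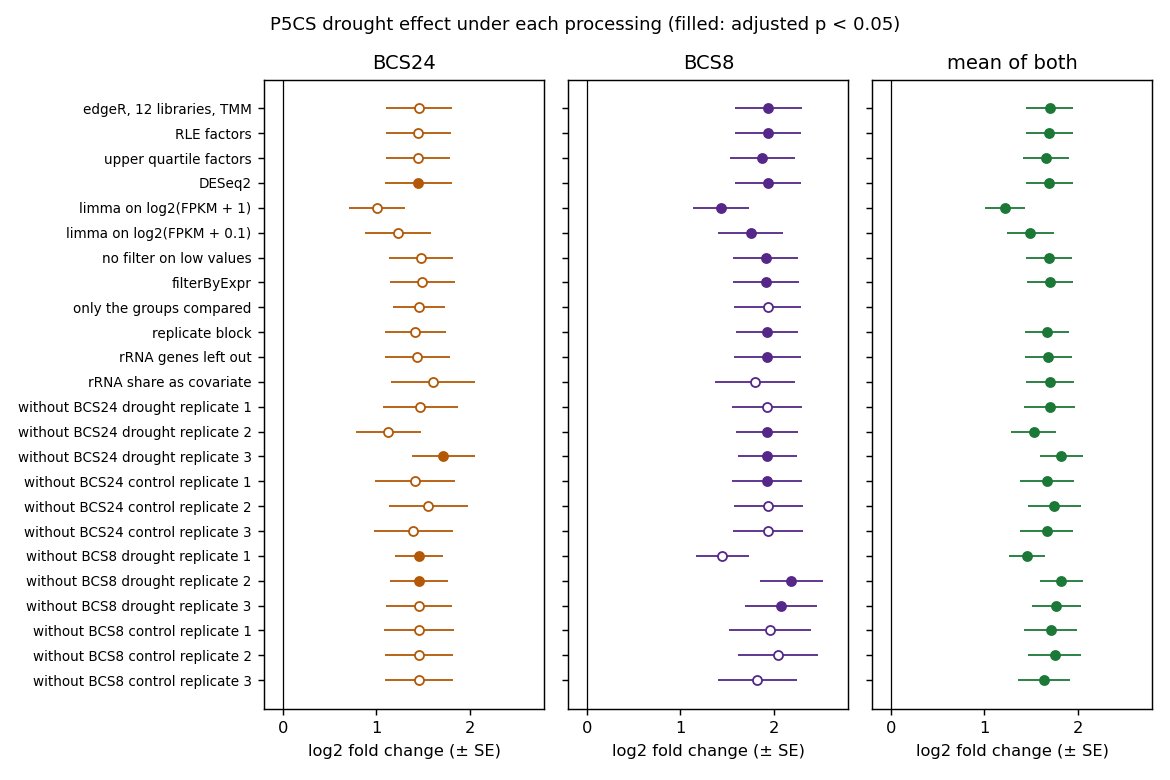
Log2 fold change of P5CS under drought (x axis) with its SE, for BCS24, BCS8 and the average of both accessions, under each way of processing the counts (y axis); filled points have an adjusted p under 0.05. All values are positive, and every point of the average over both accessions, between 1.22 and 1.82, is filled.

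Whether drought moved P5CS differently in the accessions was tested as an interaction. The BCS24 effect minus the BCS8 effect was −0.48 ± 0.49 on the log2 scale (95% interval −1.57 to 0.60; adjusted p = 0.755), so a difference in either direction was not detectable at this spread. No tested gene passed in this comparison with edgeR (0% called; 12.49% of genes had an unadjusted p under 0.05, and DESeq2 called 629, or 3.63%). Without BCS8 drought 1, the library with the highest P5CS level, the difference was 0.0078. Leaving out each library in turn gave −0.80 to 0.0078.

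The accessions were also set against each other directly. Under drought, P5CS was −0.36 ± 0.34 on the log2 scale in BCS24 relative to BCS8 (95% interval −1.13 to 0.40; adjusted p = 0.456), and the libraries overlapped, whereas 38.8% of tested genes had no overlap in either direction. The difference was 0.13 without BCS8 drought 1. In control it was 0.12 ± 0.35 (95% interval −0.65 to 0.89; adjusted p = 0.828), again with overlap, where 46.3% of tested genes had none. Between the accessions 27.4% of tested genes changed under drought and 19.1% in control, and P5CS was not among them. The exact permutation test over the 12 libraries gave −0.12 for BCS24 minus BCS8 in log2(FPKM + 1), with p = 0.63 (0.756 adjusted).

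Of the 11 transcripts, a single one carried nearly all counts. Transcript 11 (HORVU3Hr1G085760.11), of 21 exons and 4999 bases, held 23475 counts over the 12 libraries, 91.2% of the total, and was the only transcript to pass the filter of 1 FPKM in 3 libraries. Transcript 13 followed with 566 counts, transcript 10 with 540 and transcript 16, of 2 exons, with 516. Transcript 6 held 216 counts, transcript 15 held 189, transcript 5 held 163 and transcript 8 held 40, while transcripts 9, 1 and 3 held 17, 16 and 7 counts. Transcripts 5, 11 and 16 had counts in all 12 libraries. Counts of transcripts of 1 gene are estimates that share reads, and transcript 11 ends 2378 bases beyond the next transcript end, a stretch that no other listed P5CS transcript spans.

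**Figure D3:**
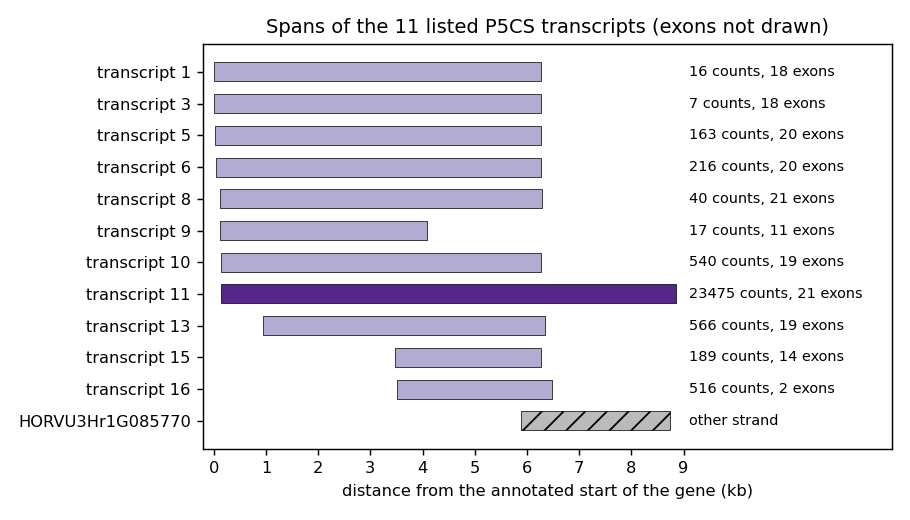
Spans of the 11 listed P5CS transcripts and of the gene on the opposite strand, by distance in kb from the annotated start of the gene (x axis), with each transcript's counts summed over 12 libraries and its number of exons at the right. Transcript 11, in the dark colour, has 23475 counts and reaches 2378 bases beyond any other transcript, into the stretch that HORVU3Hr1G085770 occupies.

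The drought effect on transcript 11 was tested in the same way. Its log2 fold change under drought averaged 1.58 ± 0.25 over both accessions (edgeR over 40421 tested transcripts; adjusted p = 0.0462), where 0.143% of tested transcripts rose. In BCS24 it was 1.36 ± 0.35 (adjusted p = 0.292; 0.00495% of tested transcripts rose) and in BCS8 1.80 ± 0.36 (adjusted p = 0.158; 0.0322% rose), so neither accession passed alone. The average call was lost with no filter on low values (0.146), with limma (0.0536), with a replicate block (0.0994) and without any 1 of 9 libraries. Those were every library except BCS24 drought 3, BCS8 drought 1 and BCS8 drought 2.

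The share of P5CS counts held by transcript 11 ranged more widely over drought libraries than over control libraries. It was 97.8, 88.5 and 85.8% in BCS24 drought, against 94.9, 95.7 and 96.9% in BCS24 control. In BCS8 it was 83.0, 91.9 and 97.1% under drought, against 96.1, 93.5 and 98.8% in control. Each share had a Wilson 95% interval of ± 0.556 to 1.58 percentage points, which covers counting error only and not the assignment of shared reads. In both accessions the drought and control libraries overlapped. The difference between drought and control was −5.29 points (exact permutation within accession, two-sided p = 0.095; 0.1425 adjusted over the 6 tests), and between BCS24 and BCS8 −0.14 points (p = 0.96).

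The remaining counts under drought lay mainly in transcripts 10, 13 and 15 of some libraries. Together these held 0, 324 and 151 counts in BCS24 drought and 0, 17 and 0 in BCS24 control, and 704, 84 and 12 in BCS8 drought and 2, 0 and 1 in BCS8 control. Their share reached 12.5% in BCS8 drought 1, the library with the highest P5CS level. BCS24 drought 1, with none of the 3, had a P5CS level between those of the other BCS24 drought libraries, so high levels and these transcripts did not always go together. By counting error alone, 0 counts of transcripts 10, 13 and 15 allowed a share of up to 0.111% of P5CS counts in BCS24 drought 1. The limit was 0.271% in BCS24 control 1, 0.336% in BCS24 control 3 and 0.234% in BCS8 control 2. These limits do not cover the assignment of shared reads. Transcript 16 had 23, 51 and 53 counts in BCS24 drought against 10, 14 and 9 in BCS24 control, and 152, 81 and 69 in BCS8 drought against 22, 30 and 2 in BCS8 control. Its share of P5CS counts was 0.853 to 2.81% in BCS24 drought against 0.902 to 1.15% in BCS24 control, and 2.16 to 3.72% in BCS8 drought against 0.240 to 2.34% in BCS8 control, with overlap in both accessions. In the edgeR fit without a filter its log2 fold change under drought was 1.96 ± 0.90 in BCS24 (adjusted p = 0.808), 2.53 ± 0.91 in BCS8 (0.734) and 2.24 ± 0.64 on average (0.611).

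A gene on the opposite strand, HORVU3Hr1G085770, annotated as a pentatricopeptide repeat protein, lies wholly within the P5CS span from 614160516 to 614163354. It had 22, 35 and 129 counts in BCS24 drought against 140, 202 and 129 in BCS24 control, and 44, 5 and 23 in BCS8 drought against 159, 23 and 109 in BCS8 control. Summed over libraries, its counts came to 2.20% of those of P5CS in BCS24 drought and 14.6% in BCS24 control, and to 0.654% in BCS8 drought and 9.49% in BCS8 control. The libraries were stranded, but whether counting used the strand is not given in the sources used here, so reads of both genes cannot be told apart. It did not pass the filter; in a fit without the filter its log2 fold change under drought was −1.31 ± 0.84 in BCS24 (adjusted p = 0.538) and −2.03 ± 0.88 in BCS8 (0.372).

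The P5CS gene on 1H was the more abundant of the pair in every group by FPKM. It had 24.6, 48.4 and 14.2 FPKM in BCS24 drought, against 16.3, 21.6 and 17.2 FPKM in BCS24 control. In BCS8 it had 80.5, 54.3 and 32.0 FPKM under drought, against 19.9, 33.8 and 17.4 FPKM in control. Drought and control libraries overlapped in both accessions. Its log2 fold change was 0.78 ± 0.44 in BCS24 (adjusted p = 0.351), 1.28 ± 0.44 in BCS8 (0.189) and 1.03 ± 0.31 on average (0.0769), none past the threshold. DESeq2 placed it past the threshold in BCS8 and on average.

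The mean ratio of the 1H gene over the 3H gene, by FPKM, was 4.53 in BCS24 drought and 7.64 in BCS24 control, and 7.23 in BCS8 drought and 10.7 in BCS8 control. Gene FPKM of the 3H gene rests on a length of 7337 bases, more than its longest transcript, whereas that of the 1H gene rests on 3406 bases with a longest transcript of 3032. By FPKM summed over transcripts, the ratios were 3.26 and 5.76 in BCS24 drought and control, and 5.19 and 8.16 in BCS8 drought and control. The 3H gene held 32.7% ± 4.58 of the counts of the pair in BCS24 drought and 22.0% ± 1.10 in BCS24 control, and 24.2% ± 6.53 in BCS8 drought and 17.2% ± 3.05 in BCS8 control (SD, n = 3 each). The 3H gene thus took its largest share in BCS24 drought, where its level was not the highest.

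The log2 ratio of counts, 3H over 1H, was tested by exact permutation over libraries after its values had been seen. It was higher by 0.69 under drought than in control (exact two-sided p = 0.015; 0.04 adjusted over the 6 tests) and higher by 0.54 in BCS24 than in BCS8 (exact p = 0.02; 0.04 adjusted). The mean log2 ratio was −1.05 ± 0.31 in BCS24 drought and −1.82 ± 0.09 in BCS24 control, without overlap. It was −1.68 ± 0.54 in BCS8 drought and −2.28 ± 0.32 in BCS8 control, with overlap. Within 1 accession, 3 against 3 libraries cannot go below an exact p of 0.1, and the values were 0.1 in BCS24 and 0.3 in BCS8. The ratio cancels library size, but not reads that could belong to either gene.

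**Figure D4:**
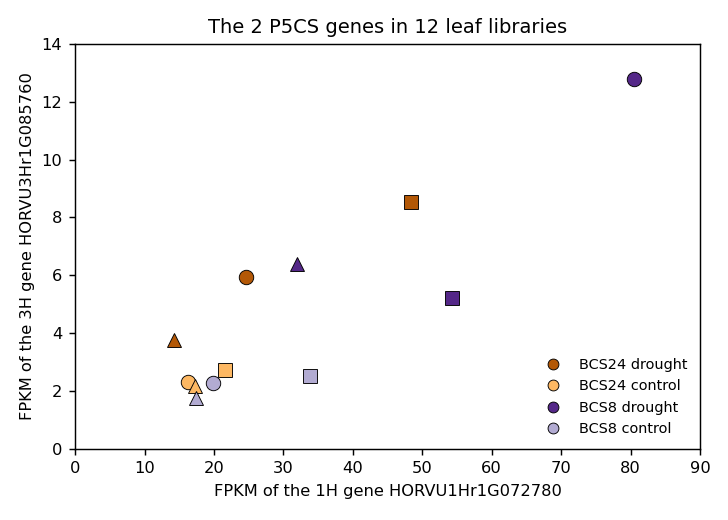
FPKM of the 3H P5CS gene (y axis) against FPKM of the 1H P5CS gene (x axis), 1 point per library with the colour giving the group. BCS8 drought 1 lies farthest out, at 12.8 and 80.5 FPKM, and the 3 BCS24 drought points lie at 5.94, 8.53 and 3.75 FPKM of the 3H gene for 24.6, 48.4 and 14.2 FPKM of the 1H gene.

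The other genes annotated to proline or glutamate metabolism were read from a list of annotation words and terms. This gave 35 genes beside P5CS, 27 of them tested, and some were listed by an ontology term alone. None of the 27 passed for drought in BCS24, in BCS8, on average or in the interaction with edgeR. At an unadjusted p under 0.05, 3 were higher and 3 lower in BCS24, 4 and 4 in BCS8, 4 and 4 on average, and 3 and 4 in the interaction. Over all tested genes, in either direction, that was 20.64% in BCS24, 16.26% in BCS8, 23.01% on average and 12.49% in the interaction. DESeq2 called 3 higher and 3 lower in BCS24, 2 higher and 1 lower in BCS8, 3 and 3 on average, and 0 and 0 in the interaction. Over all tested genes it called 10.4% in BCS24, 6.82% in BCS8 and 13.5% on average. Over all genes, edgeR called 1.4% higher and 1.25% lower in BCS24 (2.65% in all), 0.998% higher and 0.536% lower in BCS8 (1.53%), and 4% higher and 2.87% lower on average (6.87%). That balance varied with the processing. On average 693 genes were higher and 498 lower, against 681 and 506 with RLE factors and 592 and 632 with upper quartile factors. With limma on log2(FPKM + 1), which changes the test as well as the scaling, 497 were higher and 986 lower. In BCS24 the balance was 243 and 217, against 166 and 544 with limma, and in BCS8 173 and 93, against 133 and 132 with upper quartile factors. The median log2 fold change of the 27 was −0.06 in BCS24 and 0.02 in BCS8, against −0.00 and 0.02 over all tested genes. P5CS on 3H, at 1.46 and 1.94, lay far above both medians. Nearer to it were the 1H P5CS gene, at 0.78 in BCS24 and 1.28 in BCS8, and in BCS8 proline dehydrogenase, at 1.36 (0.07 in BCS24).

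**Figure D5:**
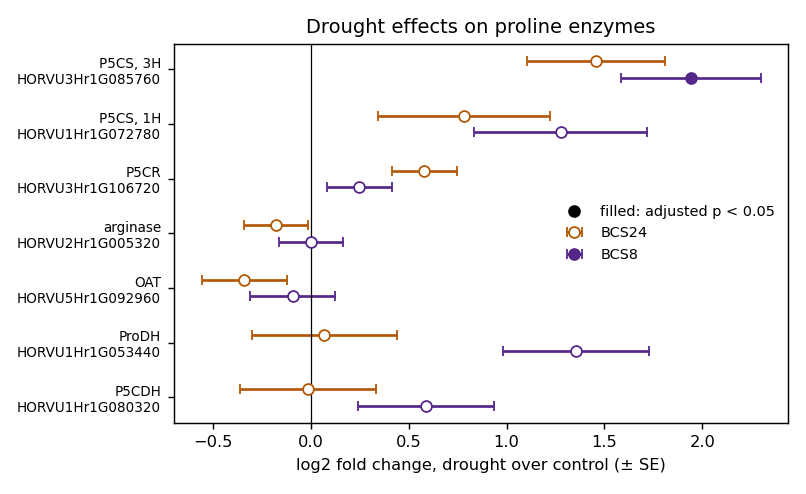
Log2 fold change under drought (x axis) with its SE in BCS24 and BCS8 for both P5CS genes, P5CR, arginase, ornithine aminotransferase (OAT), proline dehydrogenase (ProDH) and pyrroline-5-carboxylate dehydrogenase (P5CDH), with filled points for an adjusted p under 0.05. Only P5CS on 3H in BCS8, at 1.94, is filled.

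Downstream of P5CS, P5CR (HORVU3Hr1G106720), which reduces pyrroline-5-carboxylate to proline, averaged 15.1 FPKM in BCS24 drought and 10.97 in BCS24 control, and 24.1 in BCS8 drought and 20.99 in BCS8 control. Its log2 fold change under drought was 0.58 ± 0.17 in BCS24 (edgeR adjusted p = 0.0924) and 0.25 ± 0.17 in BCS8 (0.490). DESeq2 called it in BCS24 and on average. P5CR differed between the accessions: it was lower in BCS24 than in BCS8, by a log2 difference of −0.61 under drought (adjusted p = 0.0233) and −0.95 in control (0.0043).

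On the breakdown side, proline dehydrogenase (HORVU1Hr1G053440), which oxidises proline back to pyrroline-5-carboxylate, had 3.70, 6.34 and 3.85 FPKM in BCS24 drought, against 7.08, 3.70 and 3.64 FPKM in BCS24 control. In BCS8 it had 13.04, 16.1 and 31.1 FPKM under drought, against 6.96, 8.45 and 8.86 FPKM in control. The BCS8 groups did not overlap and the BCS24 groups did. The log2 fold change under drought was 0.07 ± 0.37 in BCS24 (edgeR adjusted p = 0.950) and 1.36 ± 0.37 in BCS8 (0.107; called by DESeq2). It was lower in BCS24 than in BCS8 under drought, by −2.05 ± 0.38 (adjusted p = 0.00487), a comparison in which P5CS was at −0.36 (0.456). Pyrroline-5-carboxylate dehydrogenase (HORVU1Hr1G080320), which takes that product on to glutamate, had log2 fold changes of −0.01 in BCS24 and 0.59 in BCS8.

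The ornithine branch reaches the same intermediate through arginase and ornithine aminotransferase. Arginase (HORVU2Hr1G005320) had a log2 fold change under drought of −0.18 in BCS24 and 0.00 in BCS8. Ornithine aminotransferase (HORVU5Hr1G092960) had −0.34 in BCS24 and −0.09 in BCS8. A gene with the aminotransferase term only, HORVU7Hr1G093300, carries orthology number K13566 and not that of ornithine aminotransferase, K00819. It was higher in BCS24 than in BCS8, by 1.09 under drought (edgeR adjusted p = 0.0092) and 0.78 in control (0.0405). Of the genes annotated with only 1 of the P5CS activities, HORVU3Hr1G074210, described as isopentenyl phosphate kinase, had 0.14 in BCS24 and 0.02 in BCS8. HORVU3Hr1G078420 was higher in BCS24 than in BCS8, by 1.67 under drought (adjusted p = 0.0052) and 1.34 in control (0.0160).

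Glutamate, the substrate of P5CS, is supplied by glutamine synthetase and glutamate synthase. The most abundant glutamine synthetase gene, HORVU2Hr1G111300, had a log2 fold change under drought of 0.58 in BCS24 and 0.09 in BCS8, and the most abundant glutamate synthase gene, HORVU2Hr1G022920, had −0.14 in BCS24 and −0.65 in BCS8. Of the 27 tested list genes, 7 were higher and 9 lower in BCS24 than in BCS8 under drought, and 3 and 3 in control, where 13.3% and 14.1% of all tested genes were higher and lower under drought, and 9.98% and 9.15% in control. The counts under drought were 8 and 7 with same-numbered libraries as a block, 6 and 5 with only the drought groups fitted and 1 and 4 with the ribosomal share as a covariate. Of all 17342 tested genes, these fits called 4601, 1855 and 1505 in either direction, against 4749 in the edgeR fit above. The list counts were 5 and 5 without BCS24 drought 1, 6 and 4 without BCS24 drought 3, 5 and 6 without BCS8 drought 2 and 5 and 7 without BCS8 drought 3. Of all tested genes, 2036, 3106, 2567 and 4153 passed in those fits. In control the list counts were 1 and 2 without BCS24 control 2 or BCS8 control 3. There, 1402 and 1788 of all tested genes passed, against 3317 in the edgeR fit above. The single genes below are given as they passed with all 12 libraries.

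All 4 glutamate synthase genes that passed under drought were higher in BCS24 than in BCS8: HORVU2Hr1G022920 by 1.02, HORVU2Hr1G044540 by 1.96, HORVU2Hr1G044550 by 4.79 and HORVU3Hr1G063050 by 0.82 on the log2 scale. HORVU3Hr1G063050 also passed in control, at 0.96. HORVU2Hr1G044540 and HORVU2Hr1G044550 are short, with 639 and 253 bases behind their FPKM. Both lie with HORVU2Hr1G044560 on the plus strand of chromosome 2H, between 232173065 and 232247233, and all carry orthology number K00284. Whether they are parts of 1 gene was not tested. HORVU2Hr1G044550 was near the floor, at a mean of 1.36 FPKM in BCS24 drought and 0.0371 FPKM in BCS8 drought. The other tested glutamate synthase gene, HORVU2Hr1G044560, did not pass under drought, at 0.17. All 3 glutamate dehydrogenase genes that passed were lower in BCS24 under drought. HORVU2Hr1G093030 was at −2.80, HORVU2Hr1G093020 at −1.47 and HORVU5Hr1G104700 at −1.11, with HORVU2Hr1G093030 at −1.71 in control. HORVU2Hr1G093030 lies within HORVU2Hr1G093020 on the opposite strand, so this pair could share reads. The other tested glutamate dehydrogenase gene, HORVU3Hr1G048870, did not pass under drought, at 0.02. The glutamine synthetase genes were mixed under drought, at 0.53 for HORVU1Hr1G038060, −0.90 for HORVU6Hr1G012290 and −1.06 for HORVU6Hr1G074030, with HORVU6Hr1G012290 at −1.61 in control. Among genes with another proline term, HORVU5Hr1G099390 was at −7.03 ± 1.82 and HORVU5Hr1G099470 at −3.74 ± 1.24 under drought. Both were near the floor in BCS24 drought, at means of 0.0257 and 0.0945 FPKM, against 4.15 and 1.44 FPKM in BCS8 drought. The most abundant, HORVU3Hr1G046320, had log2 fold changes under drought of 0.05 in BCS24 and 0.35 in BCS8. HORVU5Hr1G099390 and HORVU5Hr1G099470 carry orthology number K13126, and HORVU3Hr1G046320 carries K09841. These are not the numbers of the listed enzymes, so ontology terms alone placed these genes on the list. P5CS itself, at −0.36 under drought and 0.12 in control, was not among the genes that separated the accessions.

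The genes whose pattern was most like that of P5CS were ranked by Pearson's r of log2 CPM over the 12 libraries, among 3651 tested genes with a description and at least 5 FPKM in their highest group. The values are descriptions, and all points share the libraries and the group differences. HORVU1Hr1G029850, an uncharacterised protein, came first with r = 0.969, followed by HORVU1Hr1G048700 (0.931), HORVU5Hr1G078950 (0.892) and HORVU2Hr1G062910 (0.888), all described as predicted proteins. Next were HORVU2Hr1G036280, a chitin-inducible gibberellin-responsive protein (0.885), HORVU7Hr1G083990, a predicted protein (0.881), HORVU2Hr1G092710, a gene similar to the homeobox-leucine zipper HOX22 (0.878), and HORVU3Hr1G019790, a malic enzyme (0.875). By Spearman's rho, 4 of the 8 were again among the top 8. As they were chosen for their likeness to P5CS across these groups, their own drought effects are given as a description.

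The fold changes of these genes ranged in size. HORVU5Hr1G078950 had log2 fold changes under drought of 1.81 in BCS24 and 1.84 in BCS8, close to those of P5CS. The HOX22-like gene HORVU2Hr1G092710 had 2.21 in BCS24 and 2.79 in BCS8, and the malic enzyme gene 0.82 in BCS24 and 0.52 in BCS8. HORVU1Hr1G029850, the most alike, had 0.84 in BCS24 and 0.82 in BCS8. It thus ordered the libraries like P5CS with a smaller drought effect.

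On chromosome 3H, the genes nearest to P5CS in the table lie far from it apart from the overlapping one. Before it, HORVU3Hr1G085720, HORVU3Hr1G085710 and HORVU3Hr1G085690 ended 251768, 474312 and 519219 bases away, with log2 fold changes under drought of −0.02, 0.52 and −2.00 in BCS24 and 0.31, 0.87 and 0.38 in BCS8. Of these, only HORVU3Hr1G085690 in BCS24 passed (edgeR adjusted p = 0.0489). After it, HORVU3Hr1G085780 and HORVU3Hr1G085800, both with orthology number K00002, began 77142 and 127952 bases away. HORVU3Hr1G085800 lies within HORVU3Hr1G085780 on the opposite strand. They had −0.23 and −0.30 in BCS24, and −1.87 (adjusted p = 0.0702) and −2.18 (0.0310) in BCS8. No neighbour rose with P5CS past the threshold in either accession.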

How the data were processed

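Leaf RNA of 12 barley libraries was enriched with oligo(dT), made into dUTP-stranded libraries and sequenced paired-end on a NovaSeq, per the labels' protocols. The authors deposited whole-number counts and FPKM per library for 30157 genes and 143596 transcripts, per the file headers. StringTie 2.1.6, DESeq2 and edgeR are named in the submitters' processing notes, with no roles stated. Aligner, genome build, use of strand and treatment of multiply matching reads were steps not given in the sources used here. Of the gene IDs, 0 matched the RefSeq table, so names are those of the files.

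Genes (17342) and transcripts (40421) with at least 1 FPKM in at least 3 libraries were kept. After TMM scaling, the quasi-likelihood F test of edgeR 4.0.16 (under R 4.3.3) was run on the counts with 1 coefficient per group over all 12 libraries (8 residual degrees of freedom), with Benjamini-Hochberg adjustment over all tested features at 0.05. The SE is the log2 fold change over the square root of F. P5CS alone was also tested by exact permutation. The scripts were tested on simulated counts. Alternatives were DESeq2 1.42.0, limma 3.58.1 on log2(FPKM + 1) and log2(FPKM + 0.1), other filters and scalings, a replicate block, and leaving out each library.

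Named are P5CS and its transcripts, list genes past the threshold in any comparison with the most abundant gene of each role, the 8 genes most like P5CS, and 3 neighbours on either side. These choices and lists were made with earlier results of these data known. A word that had matched folylpolyglutamate synthases in the list was corrected after the list was seen. Same-numbered libraries deviated together for every number (correlations 0.139, 0.246 and 0.171) only between BCS24 drought and BCS8 drought. In that comparison, 6 of 6 libraries correlated best with their own number. The labels state no pairing, and these small correlations do not establish that the numbers pair the samples. Blocking left the P5CS call there as it was, and the list counts with the block stand beside the others.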

Additional observations from a re-analysis of the deposited data

How the results depend on the processing

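The average drought effect on P5CS passed the threshold under all 10 alternatives (log2 1.22 to 1.70) and without any 1 library (1.45 to 1.82). In BCS24 the effect was 1.45 with DESeq2 and then past the threshold, and 1.13 to 1.72 with 1 library left out. In BCS8 it was 1.93 with only the BCS8 groups and 1.80 with the ribosomal share as a covariate, in both cases no longer past the threshold, and 1.45 to 2.19 with 1 library left out. The cause was not tested. Leaving out 1 library gave −0.80 to 0.0078 for the interaction, −0.68 to 0.13 for BCS24 against BCS8 under drought, and −0.24 to 0.050 for BCS24 minus BCS8 in log2(FPKM + 1). The sign turned without BCS8 drought 1 in all 3 of these, and in the last also without BCS24 drought 3 (0.0086). The share of transcript 11 in BCS24 minus BCS8 ran from −2.06 to 1.47 points. For transcript 11 the average drought effect was 1.57 with no filter, 1.22 with limma and 1.56 with a replicate block, each no longer past the threshold, and 1.38 to 1.70 with 1 library left out.

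With the replicate block, P5CS under drought was 1.42 in BCS24 (adjusted p = 0.0686), 1.92 in BCS8 (0.0462) and 1.67 on average (0.0116), the interaction −0.51, and BCS24 against BCS8 −0.37 under drought and 0.13 in control: no other P5CS call changed. Drought and control libraries share only a number: same-numbered correlations were 0.108, 0.211 and −0.0805 in BCS24 and 0.233, −0.361 and −0.393 in BCS8, and 3 and 2 of 6 libraries correlated best with their own number. Between the accessions in control they were −0.144, −0.00383 and 0.202, with 2 of 6. The block called 305 genes instead of 460 in BCS24, 156 instead of 266 in BCS8 and 3010 instead of 3317 between the accessions in control.

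Counts of genes past the threshold moved more. In BCS24 the 460 genes became 15 with the ribosomal share as a covariate and 1803 with DESeq2, and in BCS8 the 266 became 2 with only the BCS8 groups and 1182 with DESeq2. Between the accessions under drought, 4749 became 1505 to 6091, in control 3317 became 2136 to 4712, and 1191 for the average drought effect became 962 to 2334. Leaving out 1 library gave 19 to 674 in BCS24 (19 without BCS24 control 3), 0 to 320 in BCS8 (0 without BCS8 control 1), 2036 to 5192 and 1402 to 3792 between the accessions under drought and in control (2036 without BCS24 drought 1, 1402 without BCS24 control 2), and 514 to 1186 on average (514 without BCS24 control 3). With limma the median log2 change of all genes in BCS24 was −0.10 on log2(FPKM + 1) and −0.13 on log2(FPKM + 0.1), against −0.00 with edgeR. For P5CS, at 834 to 5644 counts per library and 3 libraries per group, precision is set mainly by the spread between libraries, not by depth. For genes of low counts this was not tested.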

Other observations

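Within groups, once each library was set against its group mean, the genes most like P5CS were mostly not those most alike across groups. Arginase (HORVU2Hr1G005320) had a Pearson's r of 0.941 with P5CS over the 12 libraries, and 0.0115% of tested genes were at or above it. The 1H P5CS gene had 0.814 (0.404% at or above), ornithine aminotransferase HORVU5Hr1G092960 had 0.80 (0.502%) and pyrroline-5-carboxylate dehydrogenase 0.738 (1.36%). P5CR had 0.42 (13.8%) and proline dehydrogenase −0.08 (58.6%). Among the 3651 tested genes with a description and at least 5 FPKM in their highest group, which leaves out arginase as it has no description, the 8 highest by this measure were HORVU7Hr1G074850, a predicted protein (0.948), HORVU6Hr1G074200, described as PYD1 (0.941), the DUF296 gene HORVU5Hr1G073550 (0.934), HORVU4Hr1G051400, a predicted protein (0.921), HORVU5Hr1G062090, described as ALDH7B4 (0.915), the electron transfer flavoprotein beta gene HORVU6Hr1G093180 (0.908), HORVU1Hr1G029850 (0.894) and a vacuolar sorting protein homolog, HORVU5Hr1G052710 (0.890). Of these 8, 1 (HORVU1Hr1G029850) was also among the 8 most alike across groups. Across groups, r was 0.81 for the 1H P5CS gene, 0.55 for pyrroline-5-carboxylate dehydrogenase, 0.16 for arginase and −0.06 for ornithine aminotransferase. The 1H P5CS gene was thus as alike across groups as within them. P5CS itself varied more within the drought groups (SD of log2(FPKM + 1) 0.503 in BCS24, 0.604 in BCS8) than within control (0.122 and 0.182). The drought libraries thus weigh most in the values within groups. All these values describe the same 12 libraries and were not tested.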
